A study of Mus musculus with 36 samples.

Results

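The comparison described here is between cortex of male MSA mice that ate chow with PLX5622 (3 libraries) and cortex of male MSA mice that ate placebo chow (3 libraries), chosen by their titles from the 36 libraries of the series. MSA mice carry the MBP29-hα-syn transgene, human α-synuclein under a promoter of myelin basic protein, which drives it in oligodendrocytes, and they model multiple system atrophy. PLX5622 inhibits CSF1R and was given in chow at 1200 mg/kg from 4 weeks of age for 12 weeks; the placebo animals, which the labels also call untreated, ate the AIN-76A chow without it. Libraries used for reference are cortex of control mice without the disease transgene on PLX5622 (3) and on placebo (3), striatum of MSA mice on PLX5622 (2) and on placebo (3), corpus callosum of MSA mice on PLX5622 (2) and on placebo (2), and microglia sorted as CD11b+ CD45 low cells from forebrain of 16-week-old mice, MSA (3) and control (3), which had no diet. For sorted cells the titles read MBP29 for MSA and MBP29_het for control, while the protocol calls the sorted controls wild type. Whether the sorted controls carry the transgene is therefore not settled by the labels. Bulk RNA came from archived frozen tissue.

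Microglia, the resident macrophages of the brain, need signals through CSF1R, whose ligands are the cytokines CSF1 and IL-34, and most of them die when the receptor is blocked. Surveying microglia carry purinergic and chemokine receptors with which they sense neurons and injury, and they are the main source of complement C1q in the brain. A second group of macrophages lives at the borders of the brain, along vessels and in the meninges. Bulk tissue counts cannot tell fewer cells of a type from less RNA per cell, and this holds for every level below.

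The p-values below measure the spread between these libraries, whose animals the labels do not identify. Libraries of MSA cortex held 5.57 to 9.79 M counts assigned to genes, 75.6 to 84.5% of the total in their headers. Control cortex libraries held 4.36 to 7.72 M (60.1 to 82.6%), and in 2 of them under 70% was assigned, PLX5622 library 1 and placebo library 3. Those 2 also drew 12.1 and 8.71% of their counts from transcripts under 1 kb. In MSA cortex that share was 3.81, 4.26 and 2.14% in PLX5622 libraries 1, 2 and 3, against 2.14, 2.59 and 2.58% in placebo libraries 1, 2 and 3. PLX5622 libraries 1 and 2 therefore hold more short transcripts than the other 4. Values corrected for transcript length are given for part of the results that this can touch, and the other values are not corrected. Levels below are counts per 1000000 assigned counts (CPM), and changes are log2 ratios of PLX5622 over placebo with the standard error of the fit.

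Genes that microglia express far above the rest of the cortex were taken from libraries outside the comparison. A gene counted as microglia-enriched when its mean over the 6 sorted microglia libraries was at least 10 CPM and at least 16 times its mean in control placebo cortex, where it had to reach 2 CPM. This gave 408 genes, 407 of which passed the filter on low counts. Of these, 60 were left at 5% or less of their placebo level in control cortex on PLX5622. They are called cleared genes here, since almost none of their transcript was left there; 59 passed the filter, and 36 had at least 5 CPM in control placebo cortex. That they are low in control cortex is how they were chosen and is no result.

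Promoters of 4 cleared genes that hold a short sequence motif are shown. The motif played no part in the choice of cleared genes, and the 4 differ in how much transcript was left in MSA cortex. The motif GAGGAAG, a core letter sequence bound by PU.1, the myeloid transcription factor encoded by Spi1, was searched on both strands in RefSeq promoters of 250 bases before to 50 bases after each start (GRCm38.p6). It was in 25 of the 45 cleared genes with a promoter in that collection (55.6%), in 99 of 319 microglia-enriched genes (31.0%) and in 4152 of all 27025 genes (15.4%). Of the 8 genes that passed the test described next, 5 had a promoter there and 2 held the motif. A match is a description of letters, not of binding. Capitals mark the motif or, as CTTCCTC, its reverse complement. Itgam and Laptm5 kept under 20% of their transcript in MSA cortex and Ctss and C1qc over 30%. All 4 are shown as holders of the motif. How often it occurs by the share of transcript left was not counted.
Itgam promoter, chr7:128062390-128062689, plus strand: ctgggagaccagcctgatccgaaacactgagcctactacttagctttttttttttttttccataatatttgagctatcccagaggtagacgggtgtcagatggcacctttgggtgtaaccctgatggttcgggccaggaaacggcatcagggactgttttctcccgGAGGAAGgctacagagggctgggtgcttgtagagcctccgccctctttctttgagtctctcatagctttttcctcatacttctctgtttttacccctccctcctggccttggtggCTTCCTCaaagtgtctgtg
Laptm5 promoter, chr4:130913066-130913365, plus strand: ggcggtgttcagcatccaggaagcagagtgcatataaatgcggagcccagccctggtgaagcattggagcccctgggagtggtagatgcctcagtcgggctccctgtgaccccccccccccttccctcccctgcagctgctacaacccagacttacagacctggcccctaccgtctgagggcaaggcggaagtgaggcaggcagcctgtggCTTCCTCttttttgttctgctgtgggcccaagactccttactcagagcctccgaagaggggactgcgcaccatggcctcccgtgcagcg
Ctss promoter, chr3:95526536-95526835, plus strand: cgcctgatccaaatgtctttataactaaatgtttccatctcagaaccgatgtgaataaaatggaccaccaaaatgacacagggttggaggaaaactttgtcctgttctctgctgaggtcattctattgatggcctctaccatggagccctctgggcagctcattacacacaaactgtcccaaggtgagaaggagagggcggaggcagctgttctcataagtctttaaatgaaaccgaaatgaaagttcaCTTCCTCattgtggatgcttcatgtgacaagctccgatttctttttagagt
C1qc promoter, chr4:136892865-136893164, minus strand: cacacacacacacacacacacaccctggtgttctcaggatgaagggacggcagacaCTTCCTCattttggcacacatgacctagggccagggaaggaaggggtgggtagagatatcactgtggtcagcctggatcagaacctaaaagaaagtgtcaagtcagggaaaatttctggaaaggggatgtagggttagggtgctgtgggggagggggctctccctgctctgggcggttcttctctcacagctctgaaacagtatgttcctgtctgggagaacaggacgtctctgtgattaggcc

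PLX5622 lowered 8 genes in MSA cortex and raised 0, out of 14600 tested (edgeR's quasi-likelihood test, Benjamini-Hochberg adjusted p under 0.05; 0.0548% of genes lower and 0% higher). All 8 are microglia-enriched, and 7 of them are cleared genes. They are the purinergic receptor P2ry12, the selectin ligand Selplg, the fractalkine receptor Cx3cr1, the integrin Itgam (CD11b), the drug's own target Csf1r, the lysosomal membrane protein Laptm5, the microglial surface protein Tmem119 and the lipid enzyme Lpcat2. At an unadjusted p under 0.05, 417 genes were lower (2.86%) and 228 higher (1.56%). The test had limited reach: in simulated counts it recovered 8% of genes changed by 1 on the log2 scale and 65% of those changed by 2.

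Csf1r, which encodes the receptor that PLX5622 blocks, had 24.6, 18.8 and 25.7 CPM in PLX5622 libraries 1, 2 and 3, against 101, 112 and 166 CPM in placebo libraries 1, 2 and 3. The groups lay far apart, and Csf1r fell by 2.5 ± 0.33 (adjusted p = 0.019, edgeR), with 18.2% left. In control cortex Csf1r had 0 counts in all 3 PLX5622 libraries, against 87.5 CPM on placebo, which is at least 525-fold lower if the 3 libraries together are put at 3 counts. P2ry12 (chromosome 3, 59216271 to 59262985, minus strand, mm10), through which microglia follow ATP and ADP, had 5.93, 8.41 and 7.25 CPM on PLX5622 and 34.7, 46.7 and 63.9 CPM on placebo. It fell by 2.80 ± 0.32 (adjusted p = 0.0097, edgeR), to 14.9% of placebo with a 95% interval of 8.91 to 23.2%. No other gene that passed the test had a smaller share left.

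Cx3cr1 (chromosome 9, 120048683 to 120068296), the receptor for the neuronal chemokine fractalkine, had 16.3, 18.8 and 12.4 CPM on PLX5622 and 64.9, 103 and 121 CPM on placebo. Selplg, a ligand for selectins, had 5.75, 7.87 and 7.77 CPM on PLX5622 and 37.1, 36.6 and 67.0 CPM on placebo. For both, every PLX5622 library lay below every placebo library by more than 3-fold; Cx3cr1 fell by 2.67 ± 0.35 and Selplg fell by 2.76 ± 0.36 (adjusted p = 0.0175 each, edgeR). Itgam (chromosome 7, 128062640 to 128118491), the α chain of complement receptor 3, was the most even of them, at 5.03, 4.47 and 4.90 CPM on PLX5622 and 28.7, 26.9 and 25.7 CPM on placebo. Laptm5 had 12.4, 9.84 and 15.3 CPM on PLX5622 and 45.04, 73.4 and 79.5 CPM on placebo. Itgam fell by 2.54 ± 0.35 and Laptm5 fell by 2.44 ± 0.37 (adjusted p = 0.0177 and 0.0269, edgeR). Tmem119, a surface protein used as a microglial marker, fell by 2.06 ± 0.29, and 25.1% of its 39.0 CPM was left. Lpcat2, an enzyme of platelet-activating factor synthesis, fell by 2.52 ± 0.35 and is no cleared gene, with 17.8% left in MSA cortex and 16.5% in control cortex. The 8 calls rest on all 6 libraries: 0 passed without any 1 of PLX5622 libraries 1, 2 and 3 or placebo libraries 2 and 3, and 6 without placebo library 1.

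Over all microglia-enriched genes the change was broad and shallower than in those 8. Of the 407 tested, 371 had a negative log2 change (91.2%, against 53.3% of all genes), the median was -0.83 (all genes -0.03), and 184 of the 408 had all 3 PLX5622 libraries below all 3 placebo libraries (45.1%, against 6.67% of genes tested). The median share left was 58.0% in MSA cortex, with quartiles of 40.4 and 78.3%, and 53.8% in control cortex. Summed over these genes, 62.0% was left in MSA cortex and 58.4% in control cortex. A list of 26 homeostatic microglia genes, which the 8 called genes all belong to, had 25 negative changes and a median of -1.59. The list was written with earlier results of these data known, and 25 of its members are microglia-enriched. That the called genes belong to it is therefore no separate support. How much was left followed what control cortex kept. The 60 cleared genes had a median share left of 33.2% in MSA cortex, 136 genes of which 5 to 50% was left in control cortex had 48.9%, and 212 genes of which 50% or more was left in control cortex had 72.8%. The account below keeps to the cleared genes, whose transcript control cortex on PLX5622 nearly lacked. None of the 212 genes passed the test, and 1 of the 136 did, Lpcat2; at an unadjusted p under 0.05, 51 and 64 were lower (edgeR).

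Summed over the 60 cleared genes, MSA cortex held 296, 367 and 259 CPM on PLX5622 and 791, 1063 and 1341 CPM on placebo. The means were 307 ± 54.9 CPM on PLX5622 and 1065 ± 275 CPM on placebo (SD, n = 3 each), which leaves 28.9%. No PLX5622 library reached the lowest placebo library (exact 2-sided permutation test, p = 0.1, the smallest that 3 against 3 allows). The same sum was 7.89 ± 5.28 CPM on PLX5622 and 947 ± 187 CPM on placebo in control cortex (0.833% left), by which the genes had been chosen. In MSA striatum it was 293 ± 70.8 CPM on PLX5622 (n = 2) and 1099 ± 195 CPM on placebo (n = 3), with 26.6% left. In MSA corpus callosum it was 447 ± 63.4 CPM on PLX5622 and 1501 ± 250 CPM on placebo (n = 2 each), with 29.8% left.

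The transcripts with the least left were mostly those of surface receptors. Among the 36 cleared genes of at least 5 CPM, the lowest shares left were those of P2ry12 (14.9%), Selplg (15.2%), Cx3cr1 (16.4%), Itgam (17.7%), Csf1r (18.2%) and Laptm5 (19.0%), and these 6 were the only ones of the 59 tested cleared genes whose 95% interval ended below the median of the set, 32.5% on the scale of the fit. Next came the phospholipase D family member Pld4 with 19.7% and P2ry13, the sister receptor of P2ry12, with 19.8%, neither past the threshold. P2ry13 had 2.69, 3.40 and 1.53 CPM on PLX5622 and 12.1, 11.4 and 14.9 CPM on placebo (log2 change -2.41 ± 0.38, adjusted p = 0.0698, edgeR). The macrophage adhesion receptor Adgre1 (F4/80, 20.6%), the lectin Siglech (22.4%) and the tetraspanin Cd53 (24.0%) followed, with means of 1.27, 3.40 and 2.58 CPM on PLX5622 and intervals that reached above 50%. Among cleared genes of lower level, the transporter Abcc3 had 9.85% and the Rac activator Dock2 15.0% left; their mean levels on placebo were 3.03 and 6.09 CPM.

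Without length correction, the C1q genes stood above the median share of the 36 genes, 34.7%. C1qa was among the 12 highest and C1qb and C1qc among the 12 in the middle. With lengths corrected the median was 29.3%, and C1qb (29.8%) and C1qc (31.4%) stood close to it. C1qa, C1qb and C1qc, neighbours on chromosome 4 (136880145 to 136898844), encode the 3 chains of C1q, the first component of the classical pathway. C1qa had 31.1, 44.2 and 26.7 CPM on PLX5622 and 50.4, 99.1 and 91.0 CPM on placebo. C1qb had 31.4, 38.5 and 14.5 CPM on PLX5622 and 39.9, 78.2 and 96.7 CPM on placebo. C1qc had 24.965, 24.1 and 17.0 CPM on PLX5622 and 36.4, 56.7 and 72.8 CPM on placebo. In each of the 3 genes all PLX5622 libraries lay below all placebo libraries, but the gap to the lowest placebo library was small. C1qa, C1qb and C1qc kept 42.4, 39.3 and 39.8%, with log2 changes of -1.30 ± 0.41, -1.42 ± 0.40 and -1.39 ± 0.28, and none passed the test (adjusted p = 0.921, 0.844 and 0.243, edgeR). The 95% interval of C1qc, 24.7 to 58.6%, did not overlap that of P2ry12, but those of C1qa (21.8 to 74.99%) and C1qb (20.3 to 68.4%) did. With transcript lengths corrected, as described below, the intervals of all 3 overlapped that of P2ry12, which then ended at 22.4% (C1qa from 21.3%, C1qb from 18.2% and C1qc from 19.1%).

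Mpeg1 (chromosome 19, 12460779 to 12465285), which encodes the pore-forming protein perforin-2 of phagocytes, had 14.4, 15.4 and 16.8 CPM on PLX5622 and 29.8, 30.5 and 54.8 CPM on placebo. It kept 40.4% (95% interval 25.7 to 59.4%, or 26.9 to 64.0% with lengths corrected, above that of P2ry12 in both; log2 change -1.35 ± 0.28, adjusted p = 0.198, edgeR). Its transcript, 4332 bases, is nearly as long as that of Itgam, 4650 bases, of which 17.7% was left. Ctss, the lysosomal protease cathepsin S, had 21.9, 27.2 and 18.1 CPM on PLX5622 and 55.4, 59.955 and 79.9 CPM on placebo, so that 34.4% was left (-1.60 ± 0.29, adjusted p = 0.091, edgeR). Trem2, a lipid-sensing receptor of microglia, kept 40.3%, and the gene of the transcription factor PU.1, Spi1, kept 31.0%, at 2.51, 2.504 and 2.55 CPM on PLX5622 and 6.29, 5.79 and 12.3 CPM on placebo.

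Among the cleared genes with the largest shares left were Cd300c2, an activating receptor of myeloid cells (99.7%), the chemokine Ccl6 (92.5%), Tyrobp, the signalling adaptor of Trem2 (55.1%), the Fc receptor-like gene Fcrls (53.6%), Ly86, a partner of the Toll-like receptor family (48.0%), and the adaptor Fyb (45.6%). None passed the test, and for all but Ly86 the groups overlapped. Tyrobp had 7.36, 11.3 and 4.70 CPM on PLX5622 and 8.92, 18.6 and 14.9 CPM on placebo. Apart from that of Ly86 their intervals reached past 100%. Of the 59 tested cleared genes, 41 had an interval that ended below 100%, without adjustment for the number of genes. At an unadjusted p under 0.05, 69.5% of the 59 were lower, against 2.86% of all genes (edgeR). Past the adjusted threshold were 7 of them. No gene of the set had a 95% interval that began above the median of the set.

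Several of these large shares come with a low placebo level. In MSA placebo cortex Ccl6, Cd300c2, Tyrobp and Ly86 stood at 25.7, 27.6, 55.3 and 56.4% of their control placebo mean, and control placebo library 3, one of the 2 libraries of low assignment, was the highest of its group for all of them. Over the 12 genes with the largest share left, the MSA placebo level had a median of 64.1% of control placebo, and over the 12 with the smallest share 122%. Set against control placebo cortex instead, the PLX5622 level of MSA cortex was 11.1% for P2ry12, 16.9% for Selplg, 23.1% for Cx3cr1 and 26.3% for Csf1r. On that scale C1qa stood at 55.1%, C1qc at 55.3%, Mpeg1 at 54.4%, C1qb at 47.9% and Ctss at 41.6%, but Tyrobp at 30.4%, Ly86 at 27.1% and Ccl6 at 23.8%. P2ry12 was the lowest of the 36 genes on both scales, and C1qa and Mpeg1 were among the 12 highest on both.

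The make-up of the summed transcript also differed in value between the diets. Of the summed CPM of the cleared genes, C1qa, C1qb and C1qc together made up 29.5, 29.1 and 22.5% on PLX5622 and 16.0, 22.0 and 19.4% on placebo. Csf1r, P2ry12 and Cx3cr1 together made up 15.8, 12.5 and 17.5% on PLX5622 and 25.4, 24.6 and 26.2% on placebo. The groups overlapped in neither sum, nor did they with lengths corrected (means of 26.4% on PLX5622 and 21.5% on placebo for C1q, and of 15.6% on PLX5622 and 23.6% on placebo for the receptors). Taken singly, the share of C1qb overlapped without the correction, and those of C1qa, C1qb and C1qc all overlapped with it. Those of Csf1r, P2ry12 and Cx3cr1 did not overlap with or without it. Both sums were formed after the values had been seen and are given with no test.

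Transcript length moved with the comparison. Over 12191 genes with a mean log2 CPM above 2 that are not microglia-enriched, the log2 change had a median of 0.56 for transcripts up to 700 bases and -0.22 for those over 6000 bases (Spearman's rho of length and change -0.39 across genes, which share the libraries and are not replicates). Among the 36 cleared genes the share left ran with length in the same direction (rho -0.37). The C1q transcripts are 1049 to 1077 bases long and that of Tyrobp 559 bases, against 2388 to 4650 bases for the 6 genes that fell most. With a length curve taken out of each library, the median share left of the 36 genes was 29.3%. The share was then 33.7, 29.8 and 31.4% for C1qa, C1qb and C1qc, 28.8% for Ctss, 36.2% for Tyrobp and 41.5% for Mpeg1. It was 14.2% for P2ry12, 18.4% for Csf1r and 16.6% for Cx3cr1. For Ly86, Trem2, Spi1 and Ccl6 it was 35.3, 33.0, 27.1 and 79.8%. The order of the 36 genes changed little (rho 0.96 between shares with and without the correction). The correction kept the 8 calls and added 4, all lower, among them P2ry13, Ctss and Unc93b1, which carries Toll-like receptors to endosomes (12 of 14600, 0.0822%).

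The ranking can be held against other regions of MSA mice, whose libraries the ranking did not use, though the same animals may have given several regions. The 12 genes with the smallest share left in cortex (14.9 to 25.1%) had a median of 19.1% in striatum and 18.0% in corpus callosum. The 12 middle genes (25.4 to 39.8%) had 24.5% in striatum and 30.5% in corpus callosum, and the 12 genes with the largest share (40.3 to 99.7%) had 36.5 and 39.3%. Across the 36 genes the rank correlation of the share in cortex was 0.61 with striatum and 0.70 with corpus callosum, and 0.58 and 0.75 with lengths corrected in cortex. These are descriptions over genes that share libraries, depth and length. Cd300c2, at 99.7% in cortex, had 29.1% in striatum and 40.0% in corpus callosum, while Ccl6, at 92.5%, had 108 and 132%. C1qa had 31.1 and 36.9%, C1qc 26.2 and 24.1%, Mpeg1 38.1 and 38.8%, P2ry12 15.2 and 20.6%, and Csf1r 19.7 and 15.9%. Of the 8 genes called in cortex, P2ry12, Cx3cr1, Itgam, Laptm5, Tmem119 and Lpcat2 were called lower in striatum too (11 of 14872 genes, 0.074%) and Cx3cr1 and Itgam in corpus callosum (10 of 15881, 0.063% lower, and 1 gene higher, 0.0063%; edgeR, adjusted p under 0.05).

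The share left was also set beside values of sorted microglia. It ran against the enrichment of a gene in sorted microglia (rho -0.63 across the 36 genes), with a median enrichment of 113-fold for the 12 genes with the smallest share and 69.5-fold for the 12 with the largest. Enrichment is set against control placebo cortex, whose library 3 drew 8.71% of its counts from transcripts under 1 kb. The share left also ran with transcript length (rho -0.37). Whether either enters this relation was not tested. Sorted MSA microglia differed from sorted control microglia in 72 of 11810 genes (0.61%, edgeR), and 0 of the 60 cleared genes were among them. Among the 36 genes the difference of largest size was that of Fcrls, -1.09 ± 0.56 (adjusted p = 0.585, edgeR). These cells had no diet, so they do not show what the cells left by PLX5622 express.

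The difference between the genotypes in response to the diet was tested directly. The diet effect was less negative in MSA than in control cortex in 14 of 14600 genes (0.0959%) and more negative in 0 (edgeR's interaction term, adjusted p under 0.05). All 14 are cleared genes, a set chosen on the control side of this contrast. They were Ctss, C1qa, C1qb, C1qc, Csf1r, Cx3cr1, Mpeg1, P2ry12, Selplg, Tmem119, Fcrls, Ly86, P2ry13 and Laptm5. P2ry12, with counts in every group, differed by 4.29 ± 0.54 (adjusted p = 0.00358), and Mpeg1 differed by 3.81 ± 0.46 (adjusted p = 0.0026; edgeR for both). The 14 cannot be ranked by this value, since 6 of them had 0 counts in control PLX5622 cortex and their value then depends on the prior count of the fit. Ctss, Cx3cr1 and Selplg had 2 counts each over those 3 libraries and C1qa 3, so their values rest on very few reads. In control cortex alone, 71 genes were lower on PLX5622 (0.486%) and 0 higher.

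Several genes of border-associated macrophages had little transcript left in MSA cortex as well as in control cortex. Mrc1, the mannose receptor CD206, had 0 counts in all 3 PLX5622 libraries and 6.14, 2.04 and 1.47 CPM on placebo, at least 22.5-fold lower. The coagulation factor gene F13a1 had 1 count over the 3 PLX5622 libraries and 57 over the placebo libraries, 59.2 times lower with a 95% counting interval of 10.2 to 2378. The scavenger receptor Stab1 had 1.08, 1.07 and 2.96 CPM on PLX5622 and 15.8, 14.5 and 13.7 CPM on placebo, with 11.6% left in MSA cortex and 12.5% in control cortex. All 12 list members had a lower mean on PLX5622, although only 4 passed the filter and none the test (median log2 change -4.27, or -3.77 with Mrc1 at its bound; 3 of 4 lower at an unadjusted p under 0.05). Adjusted p was 0.0926 for F13a1, 0.112 for Stab1 and 0.17 for Mrc1 (edgeR), and DESeq2 called all 3 lower. The interaction of Stab1 was 0.01 ± 0.78 (adjusted p = 0.998, edgeR), an error too wide to show whether the genotypes differ. The summed level of the list was 3.05 to 5.93 CPM on PLX5622 and 23.05 to 37.7 CPM on placebo. Stab1, with the largest placebo level of the list, is its 1 microglia-enriched member. Over the libraries of each diet, Cd163 had 30 counts on PLX5622 and 52 on placebo, Folr2 6 and 14, and Lyve1 5 and 8. By contrast, 4 members, Mrc1 among them, had 0 counts on PLX5622.

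MHC class II genes, which present antigen, were low in these libraries. H2-Eb1 had 0.36, 0 and 0 CPM on PLX5622 and 4.09, 2.04 and 1.61 CPM on placebo, and H2-Aa and H2-Ab1 kept 17.7 and 31.5%. Cd74, the invariant chain, had 7.54, 1.07 and 7.36 CPM on PLX5622 and 9.07, 6.81 and 7.77 CPM on placebo, so the groups overlapped. Of the 6 tested members 0 passed, 4 had a negative change, 3 were lower at an unadjusted p under 0.05 (edgeR), and the median was -1.16. Of all 8 members, 4 had every PLX5622 library below every placebo library (50%, against 6.67% of genes tested). Another 2 had every PLX5622 library above every placebo library (25%, against 8.08%).

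Receptor and signalling lists of phagocytes had negative medians. Fc receptor and ITAM signalling genes, 13 of 15 of them microglia-enriched, had a negative change in 13 of 13 tested members, with a median of -1.46 and 0 past the threshold. Inpp5d, a phosphatase of that pathway, had 3.95, 7.15 and 6.44 CPM on PLX5622 and 17.3, 16.0 and 22.4 CPM on placebo. Fcer1g, the common γ chain, kept 36.1%, or 22.8% with lengths corrected, and Tyrobp, which does a similar job, 55.1%, or 36.2%. The NADPH oxidase of phagocytes had a median of -1.28 over 5 tested members, with Rac2 at 16.1% and Ncf1 at 44.5%. Toll-like receptor genes had a median of -0.97 over 10 members. Tlr2, with 6.11, 2.68 and 0.92 CPM on PLX5622 and 2.19, 0.68 and 0.94 CPM on placebo, was among the 2 with a positive change, and its groups overlapped.

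Within the complement list Itgam alone was called, and the 13 tested members had a median of -0.91. C4b, which astrocytes also make, had 58.2, 34.9 and 48.9 CPM on PLX5622 and 45.6, 33.2 and 39.4 CPM on placebo, so it did not separate the groups. Of the lysosomal list 1 of 22 members was called, Laptm5, and the median was -0.30. The cathepsins Ctsb and Ctsl, which many brain cells express, kept 95.2 and 113%. The macrophage marker Cd68 kept 42.2% in MSA cortex and 37.4% in control cortex.

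Genes of disease-associated microglia, a state known from plaques and demyelination, had a median of -0.12 over 19 tested members and 0 past the threshold. Only 7 of the 24 are microglia-enriched here, and Cst7, Itgax, Clec7a and Lilrb4a were among the 5 too low to test. Spp1, osteopontin, had 7.54, 5.37 and 7.97 CPM on PLX5622 and 3.80, 2.21 and 3.75 CPM on placebo; all 3 PLX5622 libraries were higher, but the change of 1.04 ± 0.38 did not pass (adjusted p = 0.921, edgeR). Aif1, which encodes the marker IBA1, had 3.95, 4.11 and 2.76 CPM on PLX5622 and 4.39, 5.45 and 3.62 CPM on placebo, so the groups overlapped (log2 change -0.38 ± 0.69). The ligand Il34 had 70.2, 59.0 and 72.5 CPM on PLX5622 and 67.4, 58.9 and 59.1 CPM on placebo, and Csf1 had 19.9, 10.0 and 23.7 CPM on PLX5622 and 31.0, 19.8 and 15.9 CPM on placebo; both overlapped.

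Lists of the other cell types of cortex had 0 called members. Since only 0.0548% of all genes were called lower and 0% higher, that count says little about lists this short. Changes were negative in 9 of 10 pericyte and smooth muscle, 11 of 13 endothelial and 9 of 11 oligodendrocyte precursor genes. For neurons it was 11 of 17, for oligodendrocytes 9 of 15 and for astrocytes 6 of 12, against 53.3% of all genes. Medians were -0.05 for astrocytes, 0.09 for reactive astrocytes, -0.17 for oligodendrocytes and myelin, -0.24 for oligodendrocyte precursors, -0.03 for neurons, -0.58 for endothelial cells and -0.60 for pericytes and smooth muscle. Gfap, the intermediate filament of astrocytes, had 702, 585 and 338.5 CPM on PLX5622 and 293, 242 and 421 CPM on placebo. Mbp had 2230, 2054 and 1131 CPM on PLX5622 and 910, 1525 and 2189 CPM on placebo. Both genes overlapped between the groups, with the third PLX5622 library the lowest of its group. Summed neuron genes were at 14288 to 15854 CPM on PLX5622 and 14940 to 16394 CPM on placebo. Sums of pericyte and smooth muscle genes did not overlap, at 170 to 205 CPM on PLX5622 and 219 to 293 CPM on placebo. Nor did astrocyte sums (6527 to 6946 CPM on PLX5622, 7018 to 8653 CPM on placebo), while endothelial sums overlapped.

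In the fit of all 12 cortex libraries, edgeR called no gene higher on PLX5622. It called 3 higher in the fit on the 6 MSA cortex libraries alone. Without the 2 control libraries of low assigned share it called 1 higher. Plin4, which coats lipid droplets, had 37.9, 41.7 and 26.7 CPM on PLX5622 and 1.75, 0 and 2.81 CPM on placebo (log2 change 4.42 ± 0.99, adjusted p = 0.402, edgeR). Control cortex held Plin4 at 3.21, 31.9 and 10.9 CPM on PLX5622 and 2.65, 14.4 and 15.7 CPM on placebo, so the control groups overlapped and its level there varied several-fold within each diet. Xdh, xanthine dehydrogenase, had 14.9, 13.1 and 26.5 CPM on PLX5622 and 6.14, 6.13 and 4.29 CPM on placebo (1.68 ± 0.40, adjusted p = 0.448, edgeR). DESeq2 called these 2 genes higher. Hif3a, a hypoxia-inducible factor, had 29.5, 40.4 and 13.4 CPM on PLX5622 and 12.9, 7.32 and 4.96 CPM on placebo. Of all genes, 1180 had every PLX5622 library above every placebo library (8.08%), among them 3 of the 408 microglia-enriched genes.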

How the data were processed

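The authors deposited a table of read counts per gene for all 36 libraries, with 1 transcript, its position and its length for each gene and the total of each library per the file headers. The submitters' processing notes name STAR, HOMER, DESeq2 and the build mm10, without versions or roles. Whether counting used strand is not stated in what was read here. A table of normalized values was not used.

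Of 24940 genes in the table, 14600 passed edgeR 4.0.16's low-count filter (minimum count 10). The 12 cortex libraries were fitted together in R 4.3.3 with TMM scaling and the robust quasi-likelihood test, with Benjamini-Hochberg adjustment over all genes tested and a threshold of 0.05. Striatum, corpus callosum and sorted microglia were fitted separately. The share left is the mean CPM on PLX5622 as a percent of the mean CPM on placebo, and its 95% interval comes from the fit. The 3-count floor and counting intervals cover counting error only. Pairs of libraries of 1 cortex group differed by 9.81 to 133 times sampling noise (chi-square per degree of freedom, 12 pairs), so none was treated as a copy. The test was checked on simulated counts.

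The length correction subtracted, in each library, a lowess curve (span 0.3) of log2 CPM against transcript length, and was added after the data had been seen. Alternatives were DESeq2 1.42.0, other size factors, no filter, the 6 libraries alone, a replicate block, other enrichment limits, and leaving out single libraries. The members and lists were chosen with earlier results of these data known. Named were fixed marker genes, genes past the threshold, the 10 lowest and 10 highest shares among microglia-enriched genes of at least 5 CPM, the 8 highest among cleared genes, up to 4 genes of smallest p per list, and the 5 largest non-overlapping folds each way. Some genes that this rule names are not reported here. Genes named outside this rule were chosen after their values had been seen.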

Additional observations from a re-analysis of the deposited data

Results flagged for a closer look

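The effect of the diet differed between MSA and control cortex in 14 genes, each less negative in MSA cortex by edgeR's interaction term (log2 difference with its standard error and adjusted p). All are cleared genes, which were chosen by how little control cortex kept, so membership is no support for the difference. For 8 genes every group held counts. In control PLX5622 cortex, though, Ctss, Cx3cr1 and Selplg had only 2 counts each over the 3 libraries and C1qa 3. The size of their differences therefore rests on very few reads. Ctss differed by 7.07 (0.60, adjusted p = 0.000275), C1qa by 7.01 (0.83, 0.0026), Cx3cr1 by 6.33 (0.73, 0.0026) and Selplg by 5.59 (0.73, 0.00433), all from edgeR. P2ry12 differed by 4.29 (0.54, 0.00358), Laptm5 by 3.82 (0.63, 0.0352), Mpeg1 by 3.81 (0.46, 0.0026) and Tmem119 by 3.74 (0.49, 0.00433), likewise from edgeR. For the other 6, control PLX5622 libraries held 0 counts, so the size depends on the prior count. C1qb differed by 10.20, Csf1r by 9.71, C1qc by 9.67, Ly86 by 8.95, Fcrls by 8.67 and P2ry13 by 6.69. Put at 3 counts over the 3 libraries, control cortex was lower on PLX5622 than on placebo by at least 525-fold for Csf1r, 352-fold for C1qb, 239-fold for C1qc, 123-fold for Ly86, 90.3-fold for Fcrls and 61.5-fold for P2ry13.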

How the results depend on the processing

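The 8 calls were kept under the other size factors, filters and tests, with more genes added under most of them. They were lost in whole or in part with the replicate number as a block and when single MSA cortex libraries were left out. RLE size factors gave 8 and no low-count filter 10, while DESeq2 gave 34 genes (28 microglia-enriched), a fit on the 6 MSA cortex libraries 19 (16) and a fit without the 2 control libraries of low assigned share 16 (15). In all of these the same 8 genes were called. Genes called higher numbered 2 with DESeq2, 3 in the 6-library fit and 1 without the 2 control libraries. All other calls were lower. Leaving out 1 library gave 0 to 6 genes, all microglia-enriched. With the replicate number as a block, 1 gene passed. Deviations of libraries of the same number correlated at -0.11, 0.12 and -0.09, and those of unlike number at -0.18 to 0.23. These few values cannot settle whether the numbers pair the libraries. The interaction gave 28 genes with DESeq2, 10 with the replicate block, 20 without the 2 control libraries and 10 to 15 without 1 library. The median log2 change of microglia-enriched genes, -0.83, was -0.81 with RLE or DESeq2, -0.78 without a filter, -0.79 in both smaller fits, -0.77 with lengths corrected and -0.90 to -0.77 without 1 library. It moved with the enrichment required, to -0.51 at 8-fold and -1.19 at 32-fold, and the summed share left (62.0%) to 74.9 and 49.4%, or 59.7 to 66.3% without 1 library. The median share left of these genes was 55.4 to 60.3% without 1 library. For cleared genes it was 23.6%, against 33.2%, with PLX5622 library 3 alone. In that library C1qa, C1qb and C1qc kept 33.3, 20.3 and 30.7%. In corpus callosum the replicate block gave a median of -1.90, against -1.59. Signs reversed only for genes that passed no test. Cd300c2 changed to 0.00027 with RLE, 0.036 without a filter, 0.0035 in the 6-library fit, 0.022 without the 2 control libraries and ranged from -0.48 to 0.55 without 1 library. Without 1 library Ccl6 ranged from -0.57 to 0.62, Mbp from -0.11 to 0.49, Fam46a from -0.27 to 0.70, Dnase2a from -0.026 to 0.41 and St3gal6 from -0.093 to 0.33, and Dnase2a was -0.0032 with lengths corrected. The causes were not tested. Low counts widen the intervals: that of Adgre1, at 6.17 CPM on placebo, ran from 6.07 to 65.4%.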

Other observations

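Among microglia-enriched genes that control cortex also kept, some stood higher on PLX5622 in MSA cortex than on placebo, with none past the edgeR test. The granule proteoglycan gene Srgn stood at 196% of placebo in MSA cortex and 59.9% in control cortex. The transglutaminase Tgm2 stood at 156% in MSA cortex and 91.6% in control cortex, and Nrros, which tethers latent TGF-β in microglia, at 135% in MSA cortex and 71.6% in control cortex. Whether these ratios differ between the genotypes was not called by the interaction term for any of these 3. The interferon response list had a median of 0.13 over 13 tested genes with 0 called, and 0 lower and 1 higher at an unadjusted p under 0.05. Microglial transcription factor genes had a median of -0.83 over 11 tested, with 0 called and 4 lower at an unadjusted p under 0.05, and Sall1, which maintains microglial identity, kept 57.7%.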
